A study of Rattus norvegicus with 12 samples.

Results

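Genes that respond to loss of Yap in the same direction in heart muscle cells and in heart fibroblasts are described here. They were taken from neonatal rat cultures in which poly-A RNA was sequenced after siRNA transfection. A gene belongs to the shared response if Yap siRNA changed it in the same direction in cardiomyocytes, in fibroblasts and in the main effect over all 12 libraries with cell type as a block. Each of these calls needed an adjusted p under 0.05 in limma, a linear model fitted over all genes. Of 11302 genes tested, 1524 met this rule (13.5%), 788 of them higher (6.97%) and 736 lower (6.51%) with Yap siRNA. Changes are log2 differences of FPKM + 1, Yap siRNA minus control siRNA, given as change ± standard error (SE). FPKM is the number of fragments per transcript, scaled to transcript length and to all mapped fragments.

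The cells were primary cells from hearts of Sprague Dawley rats aged 2 days. A Percoll gradient parted the myocytes from the fibroblasts, and both were kept in medium with serum. The 4 groups, with 3 libraries each, were cardiomyocytes (CM) with Yap siRNA, cardiomyocytes with negative control siRNA, fibroblasts (CF) with Yap siRNA and fibroblasts with negative control siRNA. A mix of siRNAs, each at 25 nM, was added 16 h after plating, and RNA was taken 48 h after transfection. The controls received a universal negative siRNA under the same conditions, and no untransfected cells were among the 12 libraries. The cells carried a transient loss of message, not a deletion, and protein was not measured. Nothing in the sample labels ties a library to its own animal or culture, so p-values measure only the spread between these libraries, which may be technical. The read depth is unknown, since FPKM alone are given. No library stood apart: Spearman correlations across genes were 0.989 to 0.992 within groups, 0.973 to 0.98 between siRNAs in cardiomyocytes and 0.982 to 0.984 in fibroblasts.

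YAP is a transcriptional coactivator that enters the nucleus when the kinases of the Hippo pathway are inactive or when cells spread on a stiff surface. It does not bind DNA itself. It works through the TEAD factors, which recognise the sequence GGAATG, and it switches on genes for matrix signalling, the actin cytoskeleton and cell division. In the newborn heart YAP is known for keeping cardiomyocytes dividing, and in fibroblasts for promoting the contractile myofibroblast state.

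Sequences upstream of members show the motifs whose shares among promoters are given below. The 250 bases before the start of 7 genes that fell in both cell types are printed from RefSeq (GRCr8 build), 5′ to 3′ on the strand of the gene. Capitals mark the matches to the motif named for each gene. The genes were picked for holding a match, so the matches are an illustration and no evidence of binding. The TEAD targets Ctgf, on the minus strand at chr1:22624615-22624864, Cyr61, on the minus strand at chr2:237225690-237225939, and Ajuba, on the minus strand at chr15:32000043-32000292, have GGAATG or its reverse complement in capitals. Acta1, on the minus strand at chr19:68784195-68784444, has an SRF CArG box. Mcm5, on the plus strand at chr19:13488563-13488812, has E2F motifs. Iars, on the minus strand at chr17:15193653-15193902, and Chac1, on the plus strand at chr3:126795881-126796130, have the composite ATF4 motif.
Ctgf: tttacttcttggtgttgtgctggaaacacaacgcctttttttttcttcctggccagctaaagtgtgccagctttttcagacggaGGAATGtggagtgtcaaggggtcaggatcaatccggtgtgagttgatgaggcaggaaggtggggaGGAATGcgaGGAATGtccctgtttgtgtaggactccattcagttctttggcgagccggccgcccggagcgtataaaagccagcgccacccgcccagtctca
Cyr61: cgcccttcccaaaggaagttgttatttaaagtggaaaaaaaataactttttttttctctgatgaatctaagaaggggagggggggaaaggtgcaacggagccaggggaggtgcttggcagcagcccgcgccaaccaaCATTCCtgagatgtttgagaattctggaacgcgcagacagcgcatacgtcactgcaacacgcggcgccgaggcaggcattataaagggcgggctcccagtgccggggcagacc
Ajuba: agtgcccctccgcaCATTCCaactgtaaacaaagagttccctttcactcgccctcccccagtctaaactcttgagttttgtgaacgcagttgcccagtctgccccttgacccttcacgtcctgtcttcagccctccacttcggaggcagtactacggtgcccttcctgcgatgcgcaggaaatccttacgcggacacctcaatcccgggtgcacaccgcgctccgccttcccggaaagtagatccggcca
Acta1: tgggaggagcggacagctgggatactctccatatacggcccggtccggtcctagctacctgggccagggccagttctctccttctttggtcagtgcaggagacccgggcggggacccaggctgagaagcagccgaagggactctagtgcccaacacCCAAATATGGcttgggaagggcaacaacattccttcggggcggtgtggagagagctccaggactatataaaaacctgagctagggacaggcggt
Mcm5: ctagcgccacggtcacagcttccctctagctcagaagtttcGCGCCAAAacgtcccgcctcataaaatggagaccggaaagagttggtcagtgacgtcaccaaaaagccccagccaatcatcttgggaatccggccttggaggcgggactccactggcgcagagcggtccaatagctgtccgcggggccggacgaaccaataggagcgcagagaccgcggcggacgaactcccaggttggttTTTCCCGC
Iars: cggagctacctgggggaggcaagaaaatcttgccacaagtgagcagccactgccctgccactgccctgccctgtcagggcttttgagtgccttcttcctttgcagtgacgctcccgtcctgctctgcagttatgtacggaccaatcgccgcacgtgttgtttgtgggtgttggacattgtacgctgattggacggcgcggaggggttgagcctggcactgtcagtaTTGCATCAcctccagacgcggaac
Chac1: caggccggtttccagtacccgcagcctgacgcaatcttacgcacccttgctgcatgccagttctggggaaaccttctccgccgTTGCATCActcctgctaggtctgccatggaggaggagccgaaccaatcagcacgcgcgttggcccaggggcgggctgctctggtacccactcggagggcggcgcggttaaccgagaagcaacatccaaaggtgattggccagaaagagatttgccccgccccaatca
In Ctgf the matches begin 166, 101 and 92 bases before the start of the gene, and the last 2 lie close together. The match in Cyr61 begins 113 bases before the start, that in Ajuba 236, that in Acta1 94, and those in Mcm5 209 and 8. The matches begin 24 bases before the start in Iars and 167 in Chac1.

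The siRNA lowered its target in both cell types. Yap1 had 5.90, 4.43 and 6.0 FPKM in cardiomyocytes with Yap siRNA, against 55.3, 60.8 and 63.1 FPKM with control siRNA. In fibroblasts it had 4.45, 3.88 and 4.49 FPKM with Yap siRNA, against 35.4, 37.4 and 33.5 FPKM with control siRNA. Every library with Yap siRNA lay far below every control library of its cell type, at a mean of 9.10% of control in cardiomyocytes and 12.1% in fibroblasts. The main effect was -3.02 ± 0.10 (limma, adjusted p = 6.85e-10), and the exact permutation test of the labels within each cell type gave p = 0.005, the smallest its 400 splits allow. The partners of YAP were not called in both cell types. Wwtr1, which encodes the paralog TAZ, changed by -0.60 ± 0.09 in cardiomyocytes (adjusted p = 4.13e-05) and -0.15 ± 0.09 in fibroblasts (adjusted p = 0.208). The DNA-binding partner Tead1 changed by -0.90 ± 0.15 in cardiomyocytes (adjusted p = 0.000208) and by -0.23 ± 0.15 in fibroblasts (adjusted p = 0.275); it was called in fibroblasts when each cell type was fitted on its own (adjusted p = 0.0432). Tead2 and Tead3 were not called in the main effect, with changes of -0.07 ± 0.07 and 0.16 ± 0.08 (adjusted p = 0.449 and 0.112). The change of Tead3 differed between the cell types by 0.38 (cardiomyocytes minus fibroblasts, limma, adjusted p = 0.0117). As the average of both effects in the 4-group fit, Tead3 was called higher (limma, adjusted p = 0.0195).

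The main effect over both cell types called 4193 genes, or 37.1% of those tested, with 2240 higher (19.8%) and 1953 lower (17.3%). Of these, 1524 were also called in both cell types, 1808 only in cardiomyocytes, 693 only in fibroblasts and 168 in neither. The members made up 43.6% of the 3495 genes called in fibroblasts and 27.1% of the 5626 called in cardiomyocytes. In cardiomyocytes 3248 genes fell (28.7% of those tested) and 2378 rose (21.0%), and members were 22.7% of the falls and 33.1% of the rises. In fibroblasts 1184 genes fell (10.5%) and 2311 rose (20.4%), and members were 62.2% of the falls and 34.1% of the rises. In these bulk samples fewer cells of a type and less RNA per cell cannot be told apart. A further 495 genes (4.38%) were called in opposite ways, 395 of them lower in cardiomyocytes and higher in fibroblasts (3.49%) and 100 the other way (0.885%). Without Yap siRNA fibroblast library 1 the last count was 60. With median-of-ratios scaling the counts were 262 and 189, and with quantile normalization 267 and 154. The comparisons within cardiomyocytes and within fibroblasts share no library, but they share the fit of the 4 groups and its estimate of the spread. With each cell type fitted on its own, 758 genes were higher and 811 lower in both. In those fits 678 of the 788 members that rose and 666 of the 736 that fell kept their call. Under median-of-ratios scaling 769 genes were higher and 841 lower in both, so that 47.8% of the shared calls were higher. Under quantile normalization 627 genes were higher and 1019 lower in both, a share of 38.1% higher. With neither step the share was 51.7%.

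**Figure D1:**
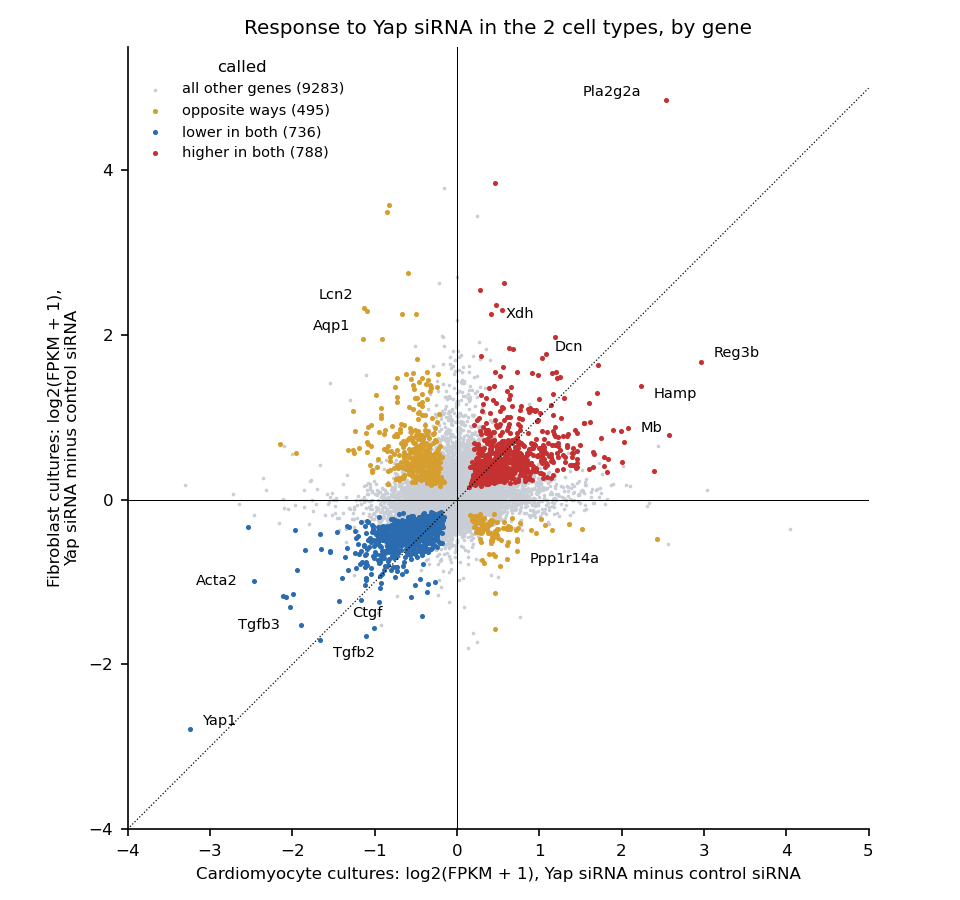
Each point is 1 of 11302 genes, with its log2 change (Yap siRNA minus control siRNA, FPKM + 1) in cardiomyocytes on the x axis and in fibroblasts on the y axis. The 736 members lower in both lie at lower left and the 788 higher in both at upper right, 495 genes called in opposite ways lie in the other quadrants, and the dotted line marks equal change.

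Among those that fell, the median change was -0.54 in cardiomyocytes and -0.40 in fibroblasts, and among those that rose it was 0.51 and 0.44, signs that the rule itself sets. Over all genes tested the medians were -0.06 in cardiomyocytes and 0.07 in fibroblasts. An absolute change of at least 1 in each cell type was seen in 12 of the 736 genes that fell and 19 of the 788 that rose. The siRNA groups overlapped in neither cell type for 700 of the 736 and 740 of the 788 genes. Over all genes tested, members included, this held for 10.3% in the lower and 10.1% in the higher direction; the rule chose members on these same values, so nothing is read from that count. The size of the change differed between cell types for 382 members (25.1%), against 35.3% of all genes tested, a share that the rule of equal direction also limits. Of those 382, 161 fell more and 139 rose more in cardiomyocytes, while 15 fell more and 67 rose more in fibroblasts. Across all genes tested, the changes in the 2 cell types had a Pearson r of 0.28 and a Spearman correlation of 0.32, given as a description over 11302 genes. They had the same sign in 59.4% of genes.

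Genes that TEAD and YAP are known to activate were well represented among the falls. Of the 18 listed targets that were tested, 10 fell in both cell types and 1 rose in both. The main effect called 14 lower and 2 higher. Over all genes tested 6.51% fell and 6.97% rose in both, the shares against which each list count below is to be read. Ctgf, the matricellular protein CCN2 and the best known YAP target, had 262, 229 and 274 FPKM in cardiomyocytes with Yap siRNA, against 731, 756 and 585 FPKM with control siRNA. In fibroblasts it had 436, 453 and 449 FPKM with Yap siRNA, against 1088, 1039 and 1011 FPKM with control siRNA. No Yap siRNA library reached the lowest control library of its cell type, and the changes were -1.43 ± 0.09 in cardiomyocytes and -1.23 ± 0.09 in fibroblasts, a difference of -0.20 ± 0.13 that did not pass the test (adjusted p = 0.235). Its relative Cyr61, or CCN1, had 106, 88.3 and 92.0 FPKM in cardiomyocytes with Yap siRNA, against 230.4, 242 and 186 FPKM with control siRNA. In fibroblasts Cyr61 had 227, 266 and 246 FPKM with Yap siRNA, against 369, 416 and 387 FPKM with control siRNA. The groups were again apart in both, and the fall was larger in cardiomyocytes (-1.19 ± 0.10 against -0.66 ± 0.10, adjusted p = 0.00893). Ajuba, a LIM protein that restrains the LATS kinases, fell in both (-1.10 ± 0.09 in cardiomyocytes, -0.95 ± 0.09 in fibroblasts). Lats2, itself a Hippo kinase and a feedback target of YAP, changed by -1.12 ± 0.07 in cardiomyocytes and -0.56 ± 0.07 in fibroblasts. The remaining targets that fell in both were Tgfb2, Crim1, Fjx1, Nuak2, Gadd45b and Ankrd1.

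Some of these target calls were fragile. Ankrd1, a stress-responsive cardiac ankyrin repeat protein, had 3226, 3694 and 3250.2 FPKM in cardiomyocytes with Yap siRNA, against 3808, 4098 and 4319 FPKM with control siRNA, a change of -0.27 ± 0.08. In fibroblasts the change was -0.99 ± 0.08. The cardiomyocyte call of Ankrd1 was lost with median-of-ratios scaling (adjusted p = 0.0966) and in a fit of cardiomyocytes alone (adjusted p = 0.0756). Nuak2 lost its fibroblast call without Yap siRNA fibroblast library 1 (adjusted p = 0.0558). Gadd45b lost its fibroblast call without any 1 of 4 fibroblast libraries, control 1 or 2 or Yap siRNA 1 or 3 (adjusted p = 0.0524, 0.0564, 0.068 and 0.0513). The target that rose in both was Nt5e, the ecto-enzyme CD73 (0.73 ± 0.13 in cardiomyocytes, 0.45 ± 0.13 in fibroblasts); its fibroblast call was lost without control fibroblast library 2 (adjusted p = 0.0618) and under quantile normalization (adjusted p = 0.0611). Amotl2, F3, Ptpn14, Axl and Myof were called lower in cardiomyocytes and not called in fibroblasts, where the changes were -0.17 ± 0.06, -0.33 ± 0.14, -0.18 ± 0.16, 0.01 ± 0.11 and -0.11 ± 0.08. With each cell type fitted on its own, Amotl2 and F3 were called lower in fibroblasts too (adjusted p = 0.0426 and 0.00805). Quantile normalization also gave both a fibroblast call (adjusted p = 0.0431 and 0.045), and median-of-ratios scaling gave Amotl2 one (adjusted p = 0.0153). Asap1 rose in cardiomyocytes (0.28 ± 0.09) and stood just outside the threshold in fibroblasts (0.25 ± 0.09, adjusted p = 0.0507). Without 1 library the fibroblast call was gained by Amotl2 (Yap siRNA cardiomyocyte library 2 or 3, adjusted p = 0.0389 and 0.0447), by F3 (control cardiomyocyte library 2, adjusted p = 0.0173) and by Asap1 (control cardiomyocyte library 2 or Yap siRNA cardiomyocyte library 1 or 3, adjusted p = 0.0471, 0.0458 and 0.0499). Igfbp3, a binding protein of insulin-like growth factors, was called lower in cardiomyocytes and higher in fibroblasts, with changes of -0.46 ± 0.15 and 1.07 ± 0.15. Its cardiomyocyte call was lost without control library 1 or 2 or Yap siRNA library 2 or 3 of the cardiomyocytes (adjusted p = 0.0877, 0.12, 0.0585 and 0.119). Of 22 tested Hippo pathway components 3 fell and 2 rose in both, beside 6.51% lower and 6.97% higher over all genes tested. Among them were the atypical cadherin Fat1 (-0.55 ± 0.08 in the main effect, adjusted p = 0.000195), the scaffold Rassf1 (-0.43 ± 0.06, adjusted p = 0.000246) and, higher, the kinase Map4k4 (0.24 ± 0.05, adjusted p = 0.00213).

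The TEAD sequence was counted in the promoters of members. RefSeq held a promoter, here 250 bases before and 50 bases after the start of the gene, for 623 of the 736 genes that fell and 616 of the 788 that rose. GGAATG on either strand was in 13.2% of the promoters of genes that fell, 9.4% of those that rose, 11.3% of all genes tested with a promoter and 13.9% of all 27457 promoters in the table. Among the 8 targets from the YAP list that fell in both and had a promoter, 4 held it, and of all 14 tested targets with a promoter 6 did. The share among all genes that fell thus lay close to that of all promoters and above those of genes tested and of genes that rose. These differences were not tested, and a motif match is a description, not a site.

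The TGF-beta ligands Tgfb2 and Tgfb3 were among the largest shared falls. Of 20 tested genes of the pathway 5 fell and 2 rose in both cell types, beside 6.51% lower and 6.97% higher over all genes tested. Tgfb3 had 20.9, 17.0 and 24.7 FPKM in cardiomyocytes with Yap siRNA, against 80.5, 79.4 and 78.6 FPKM with control siRNA. In fibroblasts Tgfb3 had 56.8, 55.9 and 58.8 FPKM with Yap siRNA, against 177, 167 and 153 FPKM with control siRNA. All Yap siRNA libraries lay below all controls in both, a main effect of -1.71 ± 0.09 (adjusted p = 1.22e-07). Tgfb2 had 31.1, 28.2 and 29.9 FPKM in cardiomyocytes with Yap siRNA, against 93.5, 107 and 88.4 FPKM with control siRNA. In fibroblasts Tgfb2 had 17.8, 18.6 and 21.0 FPKM with Yap siRNA, against 73.2, 62.8 and 58.4 FPKM with control siRNA. The groups were apart in both, with changes of -1.66 ± 0.09 in cardiomyocytes and -1.70 ± 0.09 in fibroblasts and a difference of 0.05 ± 0.13 (adjusted p = 0.814). The related ligands Tgfb1 and Inhba did not meet the rule. They changed by -0.07 ± 0.07 and -0.21 ± 0.12 in cardiomyocytes (adjusted p = 0.436 and 0.169) and by -0.26 ± 0.07 and -0.38 ± 0.12 in fibroblasts (adjusted p = 0.0139 and 0.0305). Bmp2, a ligand of the same superfamily, rose (0.47 ± 0.14 in cardiomyocytes, 0.97 ± 0.14 in fibroblasts), but its cardiomyocyte call was lost without control library 2 or Yap siRNA library 1 or 2 of the cardiomyocytes (adjusted p = 0.0544, 0.0563 and 0.0566). Smad2, which carries the TGF-beta signal to the nucleus, also fell (-0.35 ± 0.05, adjusted p = 0.000187). The coreceptor Tgfbr3 rose (0.77 ± 0.11 in cardiomyocytes, 1.09 ± 0.11 in fibroblasts), as did the latency protein Ltbp3 (0.43 ± 0.06 and 0.43 ± 0.06 in the same order).

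**Figure D2:**
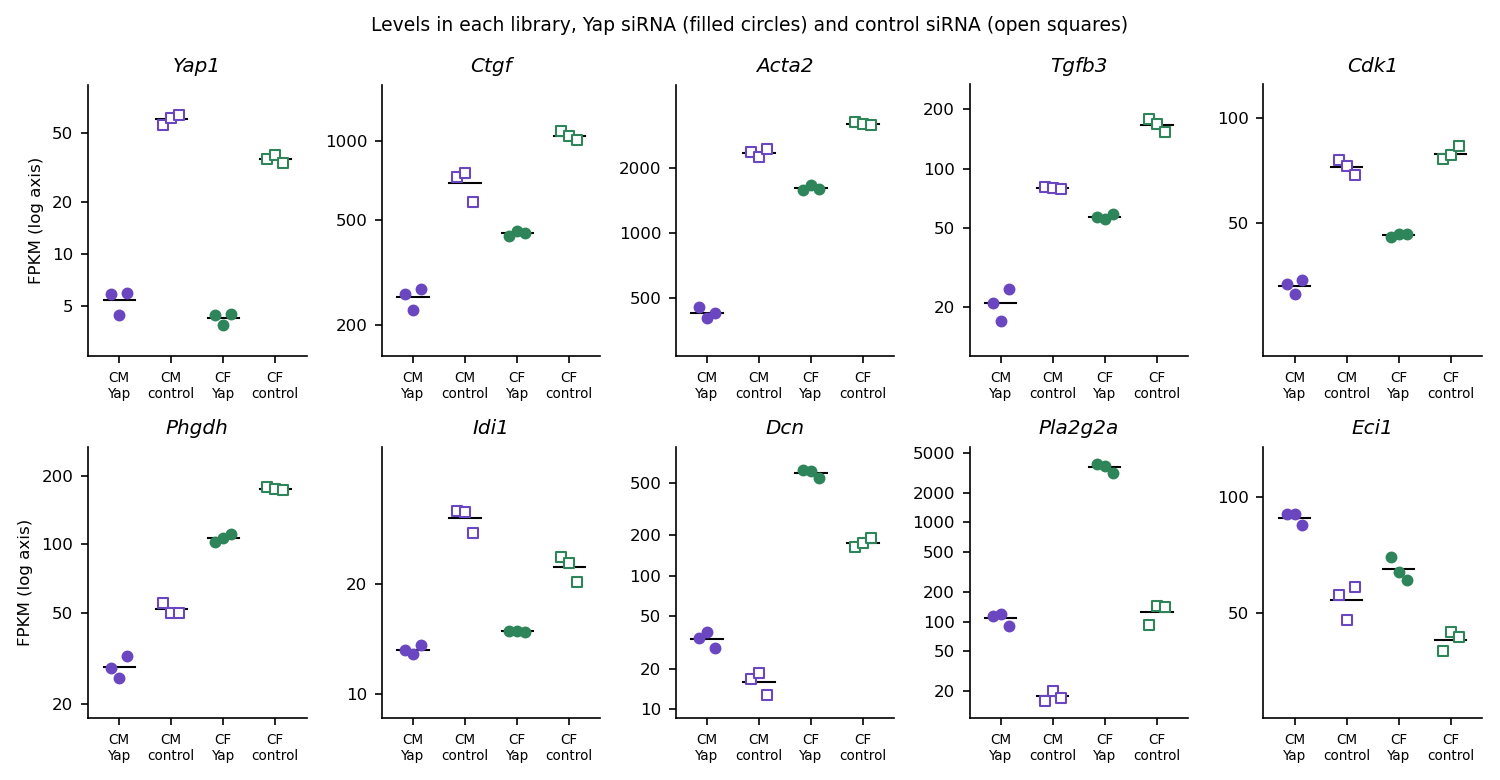
FPKM in each library (log axes) for 10 members, in cardiomyocytes (CM) and fibroblasts (CF) with Yap siRNA (filled circles) or control siRNA (open squares); bars are means of 3 libraries. In Yap1, Ctgf, Acta2, Tgfb3, Cdk1, Phgdh and Idi1 every Yap siRNA library lies below every control of its cell type, and in Dcn, Pla2g2a and Eci1 above.

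Genes of the contractile and actin apparatus were among the falls in both cell types. Acta2, the smooth muscle actin that marks myofibroblasts and immature cardiomyocytes, had 453, 402 and 425 FPKM in cardiomyocytes with Yap siRNA, against 2361, 2249 and 2449 FPKM with control siRNA. In fibroblasts Acta2 had 1581, 1667 and 1598 FPKM with Yap siRNA, against 3248, 3182 and 3176 FPKM with control siRNA. The groups were far apart in both, and the fall was larger in cardiomyocytes (-2.46 ± 0.07 against -0.99 ± 0.07, adjusted p = 6.59e-08). Of 15 smooth muscle contractile genes tested, 5 fell and 3 rose in both, beside 6.51% lower and 6.97% higher over all genes tested. Tagln, the actin-binding protein SM22, changed by -1.23 ± 0.09 in cardiomyocytes and -0.83 ± 0.09 in fibroblasts. The calponin Cnn1 (-0.45 ± 0.06) and the LIM protein Csrp1 (-0.45 ± 0.07) fell less in the main effect. The genes that rose included Myh11, the smooth muscle myosin heavy chain (0.48 ± 0.09 in cardiomyocytes, 0.43 ± 0.09 in fibroblasts), and the muscle ubiquitin ligase gene Fbxo32 (1.09 ± 0.20 and 0.82 ± 0.20 in the same order).

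Of 24 actin cytoskeleton genes and targets of SRF, the factor that reads actin dynamics, 12 fell and 0 rose in both; the main effect called 16 lower and 0 higher. Vcl, the focal adhesion protein vinculin, had 83.4, 82.3 and 94.9 FPKM in cardiomyocytes with Yap siRNA, against 151, 149.8 and 148 FPKM with control siRNA. In fibroblasts Vcl had 88.0, 95.9 and 99.5 FPKM with Yap siRNA, against 179.6, 166 and 157 FPKM with control siRNA. The groups did not overlap, and the changes were -0.78 ± 0.07 in cardiomyocytes and -0.82 ± 0.07 in fibroblasts, a difference of 0.04 ± 0.10 (adjusted p = 0.795). The alpha-actinins Actn4 (-0.84 ± 0.06) and Actn1 (-0.67 ± 0.06) and the calponin Cnn3 (-0.65 ± 0.07) fell in the main effect with adjusted p between 5.03e-07 and 2.32e-05. The tropomyosin Tpm1 was the 1 listed gene called in opposite ways. Acta1, skeletal actin, fell far in cardiomyocytes (-2.02 ± 0.15) and also in fibroblasts (-1.30 ± 0.15), where its control level was 1.11% of that in cardiomyocytes. Of 22 integrin and adhesion genes 5 fell and 1 rose in both, beside 6.51% lower and 6.97% higher over all genes tested. The beta-1 integrin subunit Itgb1 fell to 46.3% of control in cardiomyocytes and 63.5% in fibroblasts. The laminin-binding subunit Itga6 changed by -0.37 ± 0.09 in cardiomyocytes and -1.12 ± 0.09 in fibroblasts, and the integrin activator Fermt2 by -0.28 ± 0.06 and -0.30 ± 0.06 in the same order. Itgb8, whose integrin binds latent TGF-beta, rose (0.96 ± 0.15, adjusted p = 0.000329), at low levels in cardiomyocytes (0.93, 1.82 and 1.52 FPKM with Yap siRNA, against 0.82, 0.63 and 0.31 FPKM with control siRNA). The count of 5 adhesion genes became 3 without control fibroblast library 1 or 2 or Yap siRNA fibroblast library 3. The SRF CArG box, searched on both strands, was in 2.1% of the promoters of genes that fell in both, 1.3% of those that rose, 1.2% of all genes tested and 1.6% of all promoters. Of the 10 listed actin and SRF genes that fell in both and had a promoter, 1 held it, and of the 21 listed genes with a promoter 4 did. The formin Diaph3, which nucleates actin filaments, changed by -0.94 ± 0.07 (adjusted p = 1.94e-06).

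Cell division genes fell with few exceptions. Of 32 tested S phase genes 25 fell in both cell types, and of 28 genes of G2 and M phase 24 did; 0 rose in both. The median change of the S phase genes was -0.69 in cardiomyocytes and -0.42 in fibroblasts, and that of the G2 and M genes -0.58 and -0.43. Cdk1, the kinase that starts mitosis, had 33.6, 31.3 and 34.4 FPKM in cardiomyocytes with Yap siRNA, against 75.5, 73.0 and 68.7 FPKM with control siRNA. In fibroblasts Cdk1 had 45.7, 46.6 and 46.4 FPKM with Yap siRNA, against 75.9, 78.0 and 82.9 FPKM with control siRNA. The groups were clearly separate in both, and the fall was larger in cardiomyocytes (-1.11 ± 0.06 against -0.76 ± 0.06, adjusted p = 0.00676). The cyclins Ccna2 (-0.67 ± 0.06) and Ccnb1 (-0.68 ± 0.07) and the spindle protein Prc1 (-0.70 ± 0.06) fell in the main effect. Among S phase genes Cdc45, part of the replicative helicase, changed by -0.94 ± 0.12 in cardiomyocytes and -0.75 ± 0.12 in fibroblasts. Rrm1, a subunit of the reductase that makes deoxynucleotides (-0.57 ± 0.05), Uhrf1, which maintains DNA methylation (-0.62 ± 0.06), and thymidine kinase Tk1 (-0.55 ± 0.06) fell with adjusted p of 8.46e-06, 1.02e-05 and 1.95e-05.

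Genes that regulate entry into S phase were among the shared calls in both directions. Of the 3 cyclin D genes Ccnd1 and Ccnd2 fell in both cell types, with Ccnd1 at 43.9% of control in cardiomyocytes and 82.1% in fibroblasts, a difference between the cell types (adjusted p = 1.57e-05), and Ccnd2 at 52.3% and 66.7% in the same order. Ccnd3 was lower in cardiomyocytes (-0.54 ± 0.08) and was not called in fibroblasts (0.03 ± 0.08, adjusted p = 0.815). Among 25 p53 targets and cell cycle inhibitors, 3 rose and 4 fell in both, Ccnd1 and Ccnd2 included. The inhibitors of cyclin-dependent kinases went both ways. Cdkn2a changed by -0.70 ± 0.17 in cardiomyocytes and -0.54 ± 0.17 in fibroblasts, and Cdkn2c by -0.78 ± 0.12 and -0.34 ± 0.12 in the same order. Cdkn1b, the inhibitor p27, changed by 0.25 ± 0.08 in cardiomyocytes and 0.42 ± 0.08 in fibroblasts. These 3 calls were fragile. The fibroblast call of Cdkn2a was lost without control fibroblast library 2 or 3 or Yap siRNA fibroblast library 2 (adjusted p between 0.088 and 0.0993), and the cardiomyocyte call of Cdkn1b without control cardiomyocyte library 2 or 3 or Yap siRNA cardiomyocyte library 2 or 3 (between 0.0719 and 0.0911) and in a fit of cardiomyocytes alone (0.061). The fibroblast call of Cdkn2c was lost in 8 of 22 alternatives, with adjusted p between 0.0509 and 0.175: a pseudocount of 0.1, no filter, and leaving out control fibroblast library 2 or 3, any 1 Yap siRNA fibroblast library or control cardiomyocyte library 2. Cdkn1c, the inhibitor p57, had 7.02, 6.79 and 7.24 FPKM in cardiomyocytes with Yap siRNA, against 2.07, 2.21 and 2.18 FPKM with control siRNA. In fibroblasts Cdkn1c had 7.52, 7.05 and 7.26 FPKM with Yap siRNA, against 2.91, 4.62 and 3.87 FPKM with control siRNA. All Yap siRNA libraries were above the controls, and the rise was larger in cardiomyocytes (1.35 ± 0.12 against 0.80 ± 0.12, adjusted p = 0.0185). Sesn1, a stress-induced inhibitor of growth signalling, rose by 0.63 ± 0.07 (adjusted p = 4.75e-05). E2F motifs, searched as TTTGGCGC or TTTCCCGC on either strand, were in 7.5% of the promoters of genes that fell in both, 1.9% of those that rose, 3.0% of all genes tested and 1.5% of all promoters. Of the 20 S phase genes that fell in both and had a promoter, 9 held one, and of the 20 such G2 and M genes 0 did. Over all tested genes of these lists with a promoter, 11 of 26 and 0 of 24 held one. Mcm5, a subunit of the replicative helicase whose promoter is printed above, had 14.2, 10.2 and 13.6 FPKM in cardiomyocytes with Yap siRNA, against 32.7, 30.4 and 29.5 FPKM with control siRNA, and fell in fibroblasts too (-0.65 ± 0.10).

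**Figure D3:**
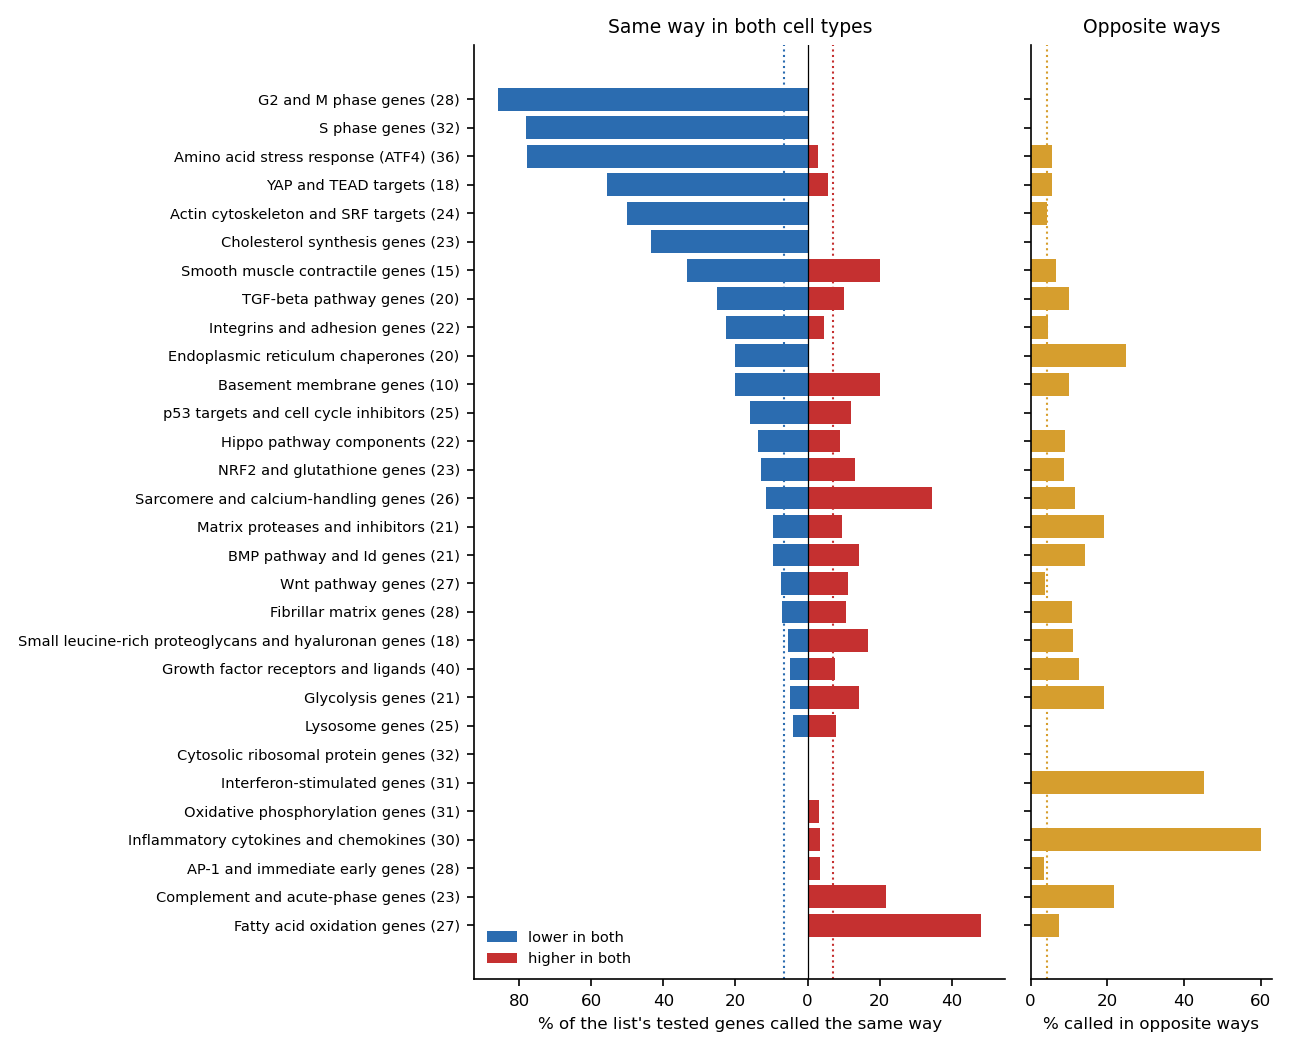
Bars give the share (%) of each list's tested genes, whose number is in brackets, called lower (left) or higher (right) in both cell types, and in the right panel called in opposite ways; dotted lines mark the shares over all 11302 genes (6.51% lower, 6.97% higher, 4.38% opposite). Cell division, ATF4 and YAP target lists lie far to the left, fatty acid oxidation to the right, and the inflammatory and interferon lists hold more opposite than shared calls.

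Most genes of amino acid supply fell in both. Of 36 tested genes of the response driven by ATF4, the factor that raises amino acid transport, synthesis and tRNA charging, 28 fell in both cell types and 1 rose. Their median change was -0.44 in cardiomyocytes and -0.49 in fibroblasts. Phgdh, the first enzyme of serine synthesis, had 28.9, 26.1 and 32.4 FPKM in cardiomyocytes with Yap siRNA, against 55.6, 50.4 and 50.1 FPKM with control siRNA. In fibroblasts Phgdh had 103, 106 and 111 FPKM with Yap siRNA, against 178, 175 and 173 FPKM with control siRNA. No library crossed into the other group, and the changes were -0.82 ± 0.07 in cardiomyocytes and -0.71 ± 0.07 in fibroblasts. Slc7a5, the large neutral amino acid transporter LAT1, fell to 56.5% of control in cardiomyocytes and 55.3% in fibroblasts. Mthfd2, a mitochondrial folate enzyme (-0.94 ± 0.07), and Yars, tyrosyl-tRNA synthetase (-0.63 ± 0.04), fell with adjusted p of 1.2e-06 and 6.56e-07. Ddit4, an inhibitor of mTOR signalling, was the gene that rose in both (0.71 ± 0.10 in cardiomyocytes, 0.38 ± 0.10 in fibroblasts), but its fibroblast call was lost without Yap siRNA fibroblast library 3 (adjusted p = 0.0511). Other listed genes were called higher in 1 cell type, Ddit3 (0.43), Atf5 (0.82), Nupr1 (0.36) and Vldlr (0.33) in cardiomyocytes and Cebpb (0.68) in fibroblasts. Of these, Vldlr was called lower in fibroblasts and Cebpb lower in cardiomyocytes. The composite ATF4 motif TGATGNAA was in 3.7% of the promoters of genes that fell in both, 1.5% of those that rose, 2.0% of all genes tested and 3.8% of all promoters. Of the 25 listed genes that fell in both and had a promoter, 11 held it, and of all 32 tested genes of the list with a promoter 12 did. Iars, isoleucyl-tRNA synthetase, and Chac1, which degrades glutathione, are printed above; they changed by -0.62 ± 0.07 and -0.56 ± 0.09 in cardiomyocytes and by -0.54 ± 0.07 and -1.18 ± 0.09 in fibroblasts. Of 20 chaperones of the endoplasmic reticulum 4 fell in both, 0 rose, and 5 were higher in cardiomyocytes and lower in fibroblasts.

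Of 23 tested genes of cholesterol synthesis, 10 fell in both and 0 rose. The main effect, which every shared call also needs, called 17 lower and 0 higher. The median change was -0.71 in cardiomyocytes and -0.24 in fibroblasts. Idi1, which makes the isoprenoid building block, had 13.2, 12.8 and 13.6 FPKM in cardiomyocytes with Yap siRNA, against 31.6, 31.5 and 27.5 FPKM with control siRNA. In fibroblasts Idi1 had 14.8, 14.9 and 14.8 FPKM with Yap siRNA, against 23.7, 22.7 and 20.2 FPKM with control siRNA. The groups were apart in both, with a larger fall in cardiomyocytes (-1.13 ± 0.08 against -0.55 ± 0.08, adjusted p = 0.000953). The prenyl transferase Fdps and the sterol oxidase Msmo1 changed by -0.62 ± 0.05 and -0.68 ± 0.09 in the main effect.

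**Figure D4:**
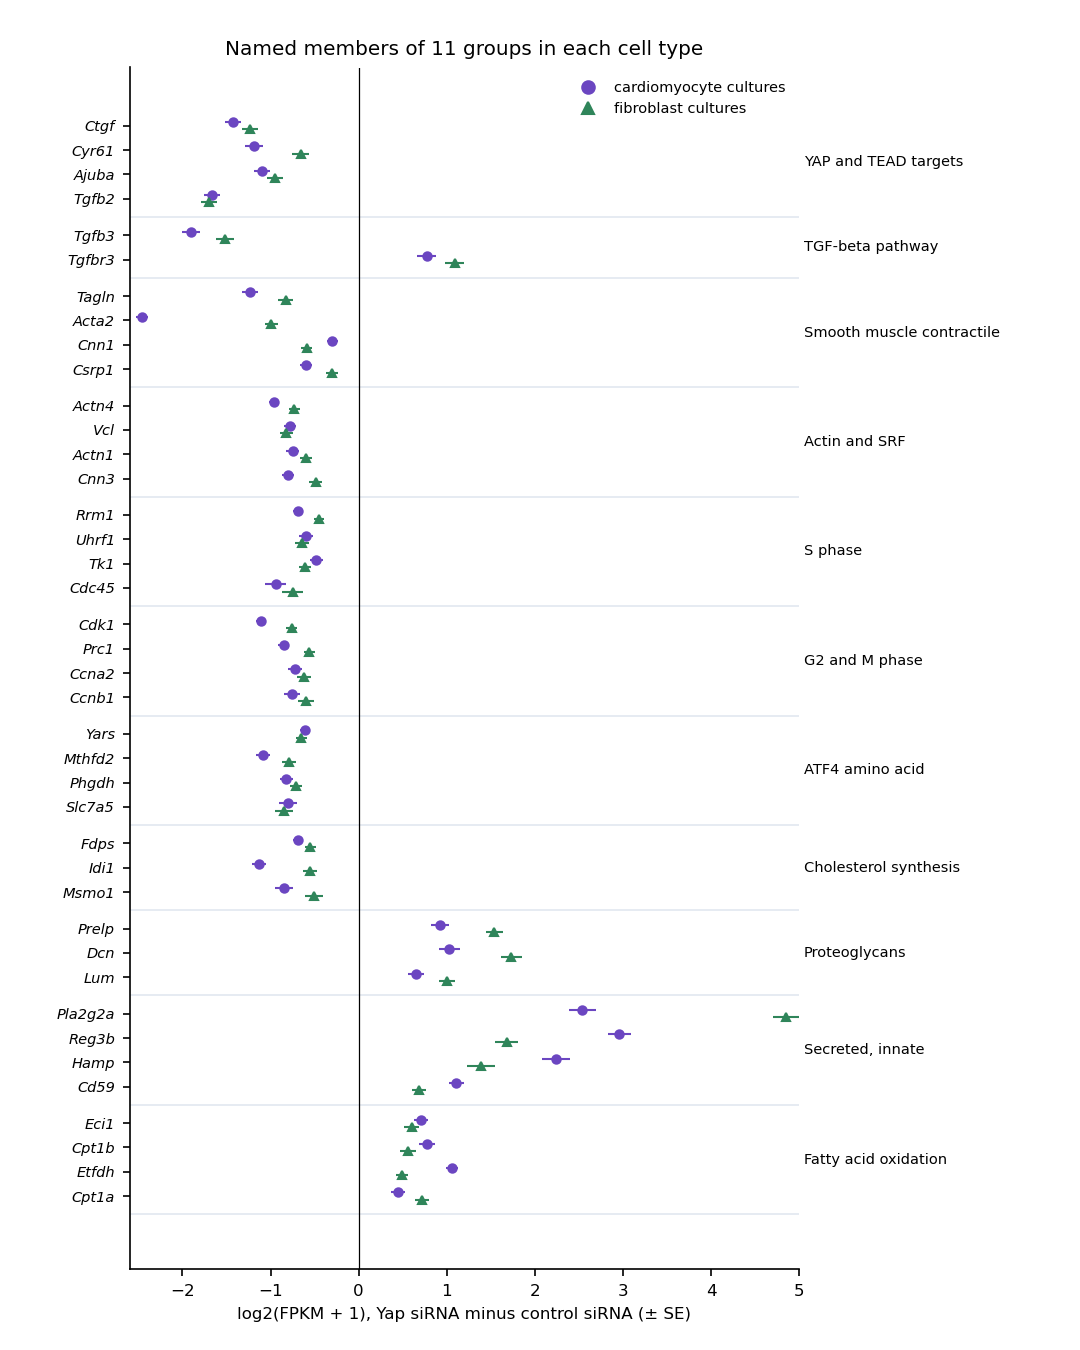
Log2 change (Yap siRNA minus control siRNA, FPKM + 1, ± SE) of named members in cardiomyocytes (circles) and fibroblasts (triangles), by group. Both symbols lie on the same side of 0 for every gene, as the rule requires, and the distance between them shows where the cell types differ in size.

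Among the 788 genes that rose, the secreted phospholipase Pla2g2a, an enzyme of innate defence, had the largest main effect (3.70 ± 0.33). It had 115, 119 and 90.5 FPKM in cardiomyocytes with Yap siRNA, against 15.8, 20.1 and 17.1 FPKM with control siRNA. In fibroblasts Pla2g2a had 3865, 3728 and 3178 FPKM with Yap siRNA, against 92.7, 143 and 140.0 FPKM with control siRNA. The groups lay far apart in both, and the mean was 6.11 times control in cardiomyocytes and 28.7 times in fibroblasts, a difference in log2 change of -2.31 ± 0.21 (adjusted p = 1.76e-06). Its relative Pla2g5 rose by 0.55 ± 0.11 in cardiomyocytes and 2.31 ± 0.11 in fibroblasts. Reg3b, a secreted lectin that binds bacteria, had 145, 198 and 162 FPKM in cardiomyocytes with Yap siRNA, against 21.8, 17.9 and 22.1 FPKM with control siRNA. In fibroblasts Reg3b had 12.8, 11.2 and 9.06 FPKM with Yap siRNA, against 2.53, 3.05 and 2.63 FPKM with control siRNA. Here the rise was larger in cardiomyocytes (2.96 ± 0.13 against 1.68 ± 0.13, adjusted p = 9.61e-05). Hamp, the iron hormone hepcidin, rose by 2.24 ± 0.16 in cardiomyocytes and 1.39 ± 0.16 in fibroblasts. Cd59, which blocks the membrane attack complex, rose by 1.11 ± 0.08 and 0.68 ± 0.08 in the same order. Of 23 complement and acute-phase genes these 4 and Hp, haptoglobin, which was singled out after its values were seen (0.47 ± 0.15 in cardiomyocytes, 1.18 ± 0.15 in fibroblasts), rose in both; 0 fell in both, and 5 were lower in cardiomyocytes and higher in fibroblasts. The cardiomyocyte call of Hp was lost without control cardiomyocyte library 3 or Yap siRNA cardiomyocyte library 2 (adjusted p = 0.0766 and 0.0522).

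Matrix genes did not move as a block, and their list counts stand beside 6.97% higher and 6.51% lower in both over all genes tested. Of 18 small leucine-rich proteoglycans and hyaluronan genes 3 rose and 1 fell in both. Dcn, the collagen-binding proteoglycan decorin, had 33.9, 37.5 and 28.6 FPKM in cardiomyocytes with Yap siRNA, against 16.6, 18.4 and 12.7 FPKM with control siRNA. In fibroblasts Dcn had 619, 608 and 538 FPKM with Yap siRNA, against 163, 176 and 191 FPKM with control siRNA. Every Yap siRNA library was above every control, and the rise was larger in fibroblasts (1.03 ± 0.12 in cardiomyocytes, 1.73 ± 0.12 in fibroblasts, adjusted p of the difference = 0.00521). Its relatives Prelp (0.92 ± 0.10 in cardiomyocytes, 1.54 ± 0.10 in fibroblasts) and Lum, or lumican (0.65 ± 0.09 and 1.00 ± 0.09 in the same order), rose too, while the hyaluronan receptor Cd44 fell (-0.57 ± 0.09, adjusted p = 0.000389). Control cardiomyocytes held Dcn, Prelp and Lum at far lower levels than control fibroblasts, whose means were 1116%, 978% and 2195% of those in cardiomyocytes. Of 28 fibrillar matrix genes 3 rose and 2 fell in both. Emilin1, an elastic fibre protein, rose (0.75 ± 0.06, adjusted p = 1.9e-06), as did Bmp1, the procollagen C-proteinase (0.32 ± 0.05, adjusted p = 0.000572). The collagen Col11a1 fell, and in cardiomyocytes its level was low (0.23, 0.09 and 0.1 FPKM with Yap siRNA, against 1.01, 0.98 and 0.91 FPKM with control siRNA). Fbln5, which organises elastic fibres, fell by 0.54 ± 0.08 in the main effect, and its fibroblast call was lost with a pseudocount of 0.1 (adjusted p = 0.0527). Of 10 basement membrane genes 2 rose and 2 fell: Col18a1 (0.39 ± 0.05) and Lamb2 (0.37 ± 0.06) against Col4a1 (-0.39 ± 0.06) and Lamc1 (-0.53 ± 0.05).

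Genes that burn fatty acids were among the rises. Of 27 tested genes of fatty acid oxidation 13 rose in both cell types and 0 fell in both, with 20 higher and 0 lower in the main effect. In fibroblasts 3 of the 27 were called lower, and 2 of these, Etfb and Fabp3, were called higher in cardiomyocytes. With median-of-ratios scaling 10 rose in both, and with quantile normalization 8. Eci1, an isomerase of the beta-oxidation cycle, had 90.4, 90.3 and 84.9 FPKM in cardiomyocytes with Yap siRNA, against 55.7, 47.8 and 58.4 FPKM with control siRNA. In fibroblasts Eci1 had 69.7, 63.8 and 61.0 FPKM with Yap siRNA, against 39.7, 44.4 and 43.2 FPKM with control siRNA. The groups did not overlap, and the change was 0.71 ± 0.08 in cardiomyocytes and 0.60 ± 0.08 in fibroblasts. The carnitine transferases that admit fatty acids to mitochondria rose as well, the liver form Cpt1a by 0.45 ± 0.08 in cardiomyocytes and 0.72 ± 0.08 in fibroblasts and the muscle form Cpt1b by 0.78 ± 0.09 and 0.56 ± 0.09 in the same order. Cpt1b had 2.00, 2.28 and 1.77 FPKM in fibroblasts with Yap siRNA, against 1.17, 0.99 and 0.98 FPKM with control siRNA. Etfdh, which passes electrons from beta-oxidation to the respiratory chain, rose more in cardiomyocytes (1.06 ± 0.07 against 0.49 ± 0.07, adjusted p = 0.000748). Of 31 tested genes of oxidative phosphorylation 1 rose in both, and 0 of 32 cytosolic ribosomal protein genes moved in both.

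Outside these lists, large shared changes were found in genes of varied function. Fads3, of the fatty acid desaturase family, fell to 23.5% of control in cardiomyocytes and 43.8% in fibroblasts. Aif1l, an actin-binding protein, fell to 24.1% and 40.9% in the same order, and Cdh3, P-cadherin, to 16.7% and 53.9%. Il1rl1, the receptor of interleukin-33, fell more in fibroblasts (-1.11 ± 0.11 in cardiomyocytes, -1.65 ± 0.11 in fibroblasts, adjusted p of the difference = 0.0166). Tril, an accessory protein of Toll-like receptor 4, had the largest difference in size among the 736 genes that fell: -2.54 ± 0.09 in cardiomyocytes and -0.33 ± 0.09 in fibroblasts, where the call was lost without Yap siRNA library 3 (adjusted p = 0.0516). The LIM protein gene Fhl1 behaved likewise (-1.96 ± 0.09 and -0.37 ± 0.09 in the same order). Pragmin, a pseudokinase, and Fam107b fell in both, with main effects of -1.23 ± 0.18 and -1.19 ± 0.08. On the other side, Akr1cl, of the aldo-keto reductase family, rose by 1.72 ± 0.14 in cardiomyocytes and 1.64 ± 0.14 in fibroblasts. Tcp11l2 rose by 1.30 ± 0.08 and 1.24 ± 0.08 in the same order. Xdh, which makes uric acid from purines, rose more in fibroblasts (0.41 ± 0.12 in cardiomyocytes, 2.25 ± 0.12 in fibroblasts). Cbr1, a carbonyl reductase (1.45 ± 0.08 and 0.39 ± 0.08), and Cd248, the stromal surface protein endosialin (1.90 ± 0.12 and 0.84 ± 0.12), rose more in cardiomyocytes. Further large rises were those of Tmem176a (1.38 ± 0.09), Wfdc21 (1.34 ± 0.19) and the copine Cpne8 (1.25 ± 0.10).

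Cardiomyocyte genes were also called the same way in both cell types, at low levels in the fibroblast cultures. Of 26 sarcomere and calcium-handling genes 9 rose and 3 fell in both; under quantile normalization the counts were 5 and 4. Myh6, the adult rodent myosin heavy chain, had 4765, 6102 and 5676 FPKM in cardiomyocytes with Yap siRNA, against 2195, 2276 and 2822 FPKM with control siRNA. In fibroblast cultures Myh6 had 57.5, 59.2 and 59.6 FPKM with Yap siRNA, against 34.1, 33.6 and 32.2 FPKM with control siRNA. Myh7, the fetal form, fell by 1.40 ± 0.09 in cardiomyocytes and 0.95 ± 0.09 in fibroblast cultures. The groups of both genes were apart in each cell type, and the control level in fibroblast cultures was 1.37% of that in cardiomyocytes for Myh6 and 1.63% for Myh7. For the 12 genes of this list called the same way in both it was 0.649% to 2.14%. The phospholamban gene Pln rose by 0.57 ± 0.07 in cardiomyocytes and 0.72 ± 0.07 in fibroblast cultures, and Myom2, of the sarcomeric M-band, by 1.17 ± 0.10 and 1.28 ± 0.10. Actc1 and Actn2, a cardiac actin and a sarcomeric alpha-actinin, fell (-0.57 ± 0.07 and -0.36 ± 0.05), and so did the natriuretic peptide gene Nppb (-1.02 ± 0.13). Mb, or myoglobin, rose by 2.08 ± 0.11 and 0.87 ± 0.11 and Myzap, of the intercalated disc, by 1.61 ± 0.09 and 1.17 ± 0.09, in cardiomyocytes and fibroblast cultures. Tnni3, troponin I, rose, but its fibroblast call was lost without control fibroblast library 1 (adjusted p = 0.0577). Tnnt2, troponin T, was higher in cardiomyocytes (0.73 ± 0.09) and lower in fibroblast cultures (-0.47 ± 0.09). So was the tropomyosin Tpm1 (0.46 ± 0.09 and -0.69 ± 0.09).

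Marker genes of each cell type were summed in every library. The summed FPKM of 15 cardiomyocyte markers was 42679.6 to 45417.9 in cardiomyocytes with Yap siRNA, against 40289.8 to 43985.5 with control siRNA. In fibroblast cultures it was 955.8 to 1058.7 with Yap siRNA, against 1201.5 to 1289.2 with control siRNA. The summed FPKM of 15 fibroblast markers in cardiomyocyte cultures was 1998.8 to 2232.0 with Yap siRNA, against 2157.4 to 2377.9 with control siRNA. In fibroblasts it was 20574.7 to 20734.8 with Yap siRNA, against 20085.3 to 20807.0 with control siRNA. Of the cardiomyocyte markers 4 rose and 4 fell in both, and of the fibroblast markers 3 rose and 1 fell. In fibroblast cultures every Yap siRNA library had a lower sum of cardiomyocyte markers than every control library, while the ranges of the fibroblast markers overlapped in both cell types. Of 13 endothelial markers the receptor Flt1 fell in both (-0.67 ± 0.10 in cardiomyocytes, -0.91 ± 0.10 in fibroblasts) and 4 went opposite ways. The sum of all 15 listed endothelial markers, untested ones included, was 455.3 to 531.1 FPKM in cardiomyocytes with Yap siRNA, against 619.9 to 735.8 with control siRNA. In fibroblasts it was 231.1 to 250.7 with Yap siRNA, against 185.2 to 211.6 with control siRNA. Of 14 leukocyte, 4 erythroid and 6 Schwann cell and neuronal markers 0 were called the same way in both. The part that cells of the other type play in the shared calls was not tested. When genes with a control level in one cell type under 10% of that in the other were left out, a step added after the values were seen, 698 of the 788 genes that rose and 723 of the 736 that fell remained.

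**Figure D5:**
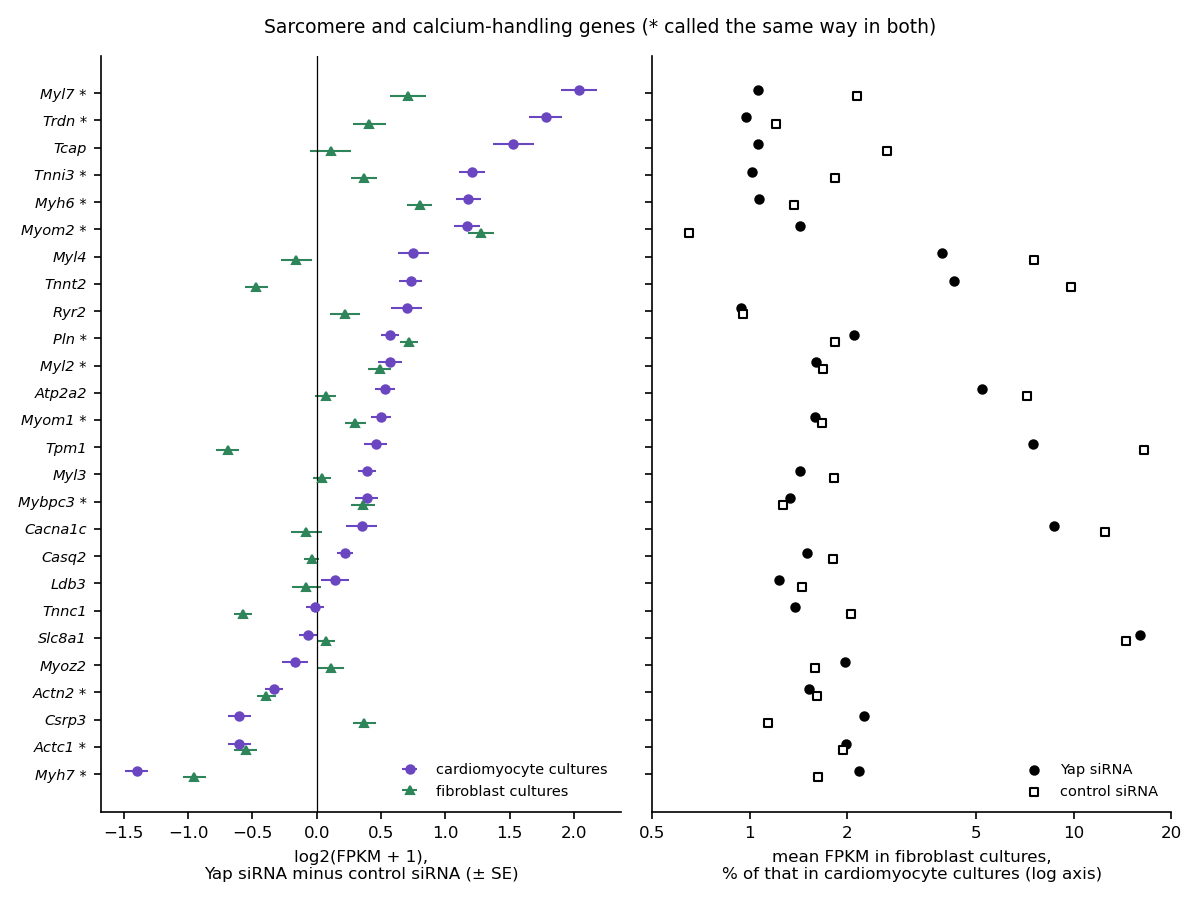
Left, log2 change (Yap siRNA minus control siRNA, FPKM + 1, ± SE) of 26 sarcomere and calcium-handling genes in cardiomyocytes (circles) and fibroblast cultures (triangles). Right, mean FPKM in fibroblast cultures as % of that in cardiomyocytes (log axis) with Yap siRNA (filled circles) and control siRNA (open squares); genes with a star, called the same way in both, lie between 0.649% and 2.14% with control siRNA.

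Opposite calls were frequent among defence genes. Of 30 inflammatory cytokine and chemokine genes 18 were lower in cardiomyocytes and higher in fibroblasts, and 1 rose in both; of 31 interferon-stimulated genes 14 were lower in cardiomyocytes and higher in fibroblasts, and 0 moved the same way in both. Lcn2, an iron-sequestering lipocalin, had 212, 159 and 183 FPKM in cardiomyocytes with Yap siRNA, against 447, 407 and 355 FPKM with control siRNA. In fibroblasts Lcn2 had 619, 594 and 575 FPKM with Yap siRNA, against 105, 119 and 129.6 FPKM with control siRNA. The groups did not overlap in either, and the changes of -1.12 ± 0.11 and 2.33 ± 0.11 differed (adjusted p = 8.41e-10). The water channel Aqp1 (-1.14 ± 0.11 in cardiomyocytes, 1.96 ± 0.11 in fibroblasts), hemopexin Hpx (-1.09 ± 0.12 and 2.29 ± 0.12), Plscr1 (-1.26 ± 0.09 and 1.08 ± 0.09), Angptl4 (-0.99 ± 0.12 and 1.27 ± 0.12) and Sema3c (-0.92 ± 0.09 and 1.03 ± 0.09) moved in the same opposed way. Among the 100 genes called the other way were the myosin phosphatase inhibitor Ppp1r14a (0.73 ± 0.13 in cardiomyocytes, -0.62 ± 0.13 in fibroblasts) and the RNA-editing enzyme Adarb1 (0.47 ± 0.10 and -1.13 ± 0.10). The interferon response motif, searched on both strands, was in 7.3% of the promoters of the 395 genes lower in cardiomyocytes and higher in fibroblasts that had one, against 1.0% of the members that fell, 3.4% of those that rose, 2.9% of all genes tested and 3.8% of all promoters. Nudt12, Trap1 and Prelid3b were just inside the threshold for a shared call, with the larger of the 2 within-cell-type adjusted p at 0.0498, 0.0497 and 0.0496, and lost their call in 14, 15 and 15 of 22 alternatives. Ctsf, Letm2 and Cox7c were just outside, at 0.05, 0.0502 and 0.0502.

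In signalling and stress lists shared calls went in both directions, except AP-1 genes, and are set here beside the 6.97% higher and 6.51% lower over all genes tested. Of 21 genes of the BMP pathway 3 rose and 2 fell in both, of 27 Wnt pathway genes 3 rose and 2 fell, and of 40 growth factor ligands and receptors 3 rose and 2 fell. Dkk3, of the dickkopf family of secreted proteins, rose by 1.16 ± 0.07 in cardiomyocytes and 0.47 ± 0.07 in fibroblasts. Of 23 NRF2 and glutathione genes 3 rose and 3 fell, among them, higher, catalase Cat (0.41 ± 0.06, adjusted p = 0.00019). Among the calls of these lists, the ligand Fgf7 (higher), the Wnt receptor Fzd2, the ligands Hbegf and Areg and the cystine transporter Slc7a11 (lower) were not stable. Leaving out each of 12 libraries in turn ended the shared call of Fgf7 in 3 cases, of Fzd2 in 2, of Hbegf in 3, of Areg in 5 and of Slc7a11 in 3. Of 21 glycolysis genes 3 rose and 1 fell, of 25 lysosome genes 2 rose and 1 fell, of 21 matrix proteases and inhibitors 2 rose and 2 fell, and of 28 AP-1 and immediate early genes 1 rose. Of 11 smooth muscle and pericyte markers 4 rose and 1 fell, among them the subunits Abcc9 (1.12 ± 0.17) and Kcnj8 (0.89 ± 0.13) of a potassium channel. This marker list also holds Myh11 and Pln, which rose in both and are counted in the smooth muscle contractile and sarcomere lists above. Its summed FPKM was 1485.0 to 1572.3 in control cardiomyocytes, against 425.4 to 472.5 in control fibroblasts. Of 7 epicardial markers 1 rose.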

How the data were processed

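Poly-A RNA of 12 libraries, 3 in each of 4 groups, was sequenced on a BGISEQ-500 per the labels' protocols. The authors deposited FPKM per gene for every library, per the file headers. Per the submitters' processing notes, HISAT and Bowtie2 were run and rn6 was the rat build. No source used here gives their versions, the quantification tool or the annotation. The values did not step in whole reads. At a tolerance of 0.1 read, 23.7% of 14180 low values came out whole, where 20% would with no steps. So read depth is unknown, no count test was run, and precision rests on the spread between libraries.

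The table holds 14636 genes, and 14516 gene IDs (99.2%) matched the RefSeq names. Of 31 symbols that were blank or turned into dates, 29 were restored by gene ID. The 11302 genes that averaged 0.5 FPKM or more over the libraries were tested. log2(FPKM + 1) was fitted in limma 3.58.1 (R 4.3.3) with a variance trend. The added 1 FPKM understates the change of low genes. The main effect came from an additive fit of cell type and siRNA. Effects within each cell type and their difference came from a fit of the 4 groups. Benjamini-Hochberg adjustment ran over all genes tested, with calls at an adjusted p under 0.05. The exact test permuted siRNA labels within each cell type, two-sided. The fit was tested on simulated data. Tables and figures were made in Python 3.11.15 with pandas 2.3.3, numpy 2.4.6 and matplotlib 3.10.9.

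Members and 39 gene lists were chosen with earlier results of these data known, so list counts are descriptions. Named genes came from the target list and the partners of YAP, the 15 largest falls and 15 largest rises at 5 FPKM or more, up to 4 members per list and those that went against the list, the strongest opposite calls, the 5 largest differences in size each way and the 3 genes on each side of the threshold. Not all genes so named are described, and 1 list and a few genes are not reported here. Mcm5, Iars and Chac1 were added for their promoters. Tgfb1, Inhba, Ccnd3 and Hp were chosen after their values were seen. Alternatives were other pseudocounts, filters, scalings, fits and thresholds, and leaving out each library.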

Additional observations from a re-analysis of the deposited data

Results flagged for a closer look

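The size of the change differed between cardiomyocytes and fibroblasts for the following genes, by a limma test of the difference itself (cardiomyocytes minus fibroblasts, log2, adjusted over 11302 genes). The change was in the same direction in both cell types for the first 4 groups of genes below, as the rule for membership requires. No explanation was tested.

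Among genes that fell more in cardiomyocytes, the difference was -2.21 for Tril, -1.59 for Fhl1, -1.47 for Acta2, -1.23 for Pragmin, -1.10 for Cdh3, -1.07 for Fzd2 and -0.91 for Fads3. Next came -0.89 for Ccnd1, -0.86 for Hbegf, -0.85 for Aif1l, -0.72 for Acta1, -0.66 for Nppb, -0.58 for Idi1 and -0.58 for Mcm5. Next came -0.57 for Lats2, -0.53 for Cyr61, -0.46 for Yap1, -0.46 for Cd44, -0.45 for Itgb1, -0.45 for Myh7 and -0.40 for Tagln. Next came -0.38 for Tgfb3, -0.35 for Cdk1, -0.31 for Cnn3, -0.30 for Csrp1, -0.29 for Prc1, -0.29 for Mthfd2 and -0.25 for Rrm1. Next came -0.23 for Actn4. Adjusted p ran between 2.19e-08 and 0.046.

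Among genes that fell more in fibroblasts, it was 0.75 for Itga6, 0.73 for Ankrd1, 0.61 for Chac1, 0.55 for Il1rl1 and 0.29 for Cnn1. Adjusted p ran between 0.000237 and 0.0166.

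Among genes that rose more in cardiomyocytes, it was 1.29 for Reg3b, 1.2 for Mb, 1.06 for Abcc9, 1.06 for Cbr1, 1.06 for Cd248, 0.85 for Hamp and 0.85 for Tnni3. Next came 0.70 for Dkk3, 0.56 for Etfdh, 0.54 for Cdkn1c, 0.50 for Nudt12, 0.43 for Myzap, 0.42 for Cd59 and 0.38 for Myh6. Next came 0.26 for Emilin1. Adjusted p ran between 6.92e-06 and 0.0402.

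Among genes that rose more in fibroblasts, it was -2.31 for Pla2g2a, -1.84 for Xdh, -1.76 for Pla2g5, -0.71 for Itgb8, -0.71 for Hp, -0.70 for Dcn and -0.62 for Prelp. Next came -0.53 for Cpne8 and -0.36 for Lum. Adjusted p ran between 1.69e-06 and 0.0415.

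Among genes called in opposite ways, it was -3.46 for Lcn2, -3.38 for Hpx, -3.10 for Aqp1, -2.34 for Plscr1, -2.26 for Angptl4, -1.96 for Sema3c and 1.59 for Adarb1. Next came -1.52 for Igfbp3, 1.34 for Ppp1r14a, 1.21 for Tnnt2 and 1.14 for Tpm1. Adjusted p ran between 8.41e-10 and 0.000111.

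Among genes called in at most 1 cell type, it was -0.97 for F3, -0.84 for Amotl2, -0.67 for Tead1, 0.58 for Cox7c, -0.56 for Ccnd3, -0.48 for Axl and -0.45 for Wwtr1. Next came 0.38 for Tead3 and -0.33 for Myof. Adjusted p ran between 9.24e-06 and 0.0359.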

How the results depend on the processing

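In all, 26 alternatives were run. An adjusted p under 0.01 gave 1211 genes higher and 1157 lower in the main effect, 432 higher and 440 lower in both cell types, and 194 lower and 41 higher in cardiomyocytes among opposite calls. An absolute log2 change of at least 1 in each cell type left 19 higher and 12 lower in both, with 4 opposite calls lower in cardiomyocytes and 0 higher. Opposite calls lower in cardiomyocytes numbered 262 with median-of-ratios scaling. Those higher in cardiomyocytes numbered 189 with that scaling and 154 with quantile normalization. Median-of-ratios scaling divided control cardiomyocyte libraries by 1.033 to 1.069 and those with Yap siRNA by 0.977 to 1.01. In fibroblasts the divisors were 0.957 to 0.966 with control siRNA and 0.987 to 1.004 with Yap siRNA. Over all genes tested, median changes in cardiomyocytes and fibroblasts were 0.01 and 0.02 with that scaling, against -0.06 and 0.07 without it. The cause of the moved counts was not tested. Leaving out each library gave 611 to 837 genes higher and 552 to 808 lower in both, 60 to 117 opposite calls higher in cardiomyocytes and 299 to 420 lower. Of the members, 433 of 788 and 439 of 736 kept their call without each library in turn. Quantile normalization kept 545 and 689. Leaving out genes without a proper symbol, a step chosen after seeing the data, gave 766 and 729.

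Whether the replicate numbers pair the libraries is unknown. Same-numbered siRNA pairs had residual correlations of 0.144, 0.037 and 0.086 in cardiomyocytes and -0.002, -0.086 and -0.123 in fibroblasts. Other pairs ran from -0.156 to 0.061 in cardiomyocytes and from -0.09 to 0.158 in fibroblasts. With 3 libraries per group these values cannot settle it. With a replicate block the main effect called 1497 genes higher and 1400 lower, and 779 were higher and 729 lower in both. Averaging the effects of both cell types in the 4-group fit called 3005 higher and 2604 lower.

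Of 3531 comparisons of a named gene's main effect with an alternative, 3491 kept direction and side of the threshold, 32 lost the call, 8 gained one and 0 reversed. Genes called in opposite ways entered by their effect in each cell type instead. These comparisons do not score the shared call, which was lost more often. Of 123 named genes called the same way in both cell types, 21 lost that shared call under at least 1 alternative. The Pearson r across genes of 0.28 was 0.30 with a filter of 5 FPKM. Unknown depth leaves low genes, such as cardiomyocyte genes in fibroblast cultures, without a counting error.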
